A study of Mus musculus with 24 samples.

Results

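The fibroblast growth factor (FGF) genes described here are 37 genes of the 18193 that the array represented by symbol. They comprise 18 genes for secreted ligands, 4 for the intracellular proteins Fgf11 to Fgf14, 5 for receptors, 3 for ETS transcription factors that FGF signalling switches on, and 7 for inhibitors of the pathway. Members were taken by symbol, as Fgf followed by digits or a fixed list of receptor, target and feedback genes, and each was read from the probe set that was brightest on average across the 24 arrays. Of the 37, 28 lay above the filter on dim signals and were tested, 8 did not, and Etv1 had no probe set of its own. The tissue was the mandible and maxilla of mouse embryos on a C57B6 background at embryonic day 14.5 (E14.5), each jaw divided into a distal and a proximal end that the labels call bone. Mutant embryos came from crosses of Wnt1-Cre; Alk5 fl/+ with Alk5 fl/fl mice and were picked out by palate clefts and calvarial defects. Control embryos were littermates whose genotype at Alk5 and Cre was not stated in the sources used here. Each of the 8 groups, mutant or control at each end of each jaw, held 3 arrays, for 24 arrays in all. Alk5 (symbol Tgfbr1) is a receptor for TGF-beta, and Wnt1-Cre recombines in cranial neural crest, so epithelium, muscle, endothelium and blood cells of these jaws kept their own alleles.

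Secreted FGFs bind receptor tyrosine kinases together with heparan sulfate, and the receptors signal through Ras and the kinases MEK and ERK. In developing jaws, ligands pass between epithelium and neural crest mesenchyme and act on outgrowth, palate, cartilage and bone. The pathway limits itself: ERK activity induces the factors Etv4 and Etv5 and a set of inhibitors, among them the Sprouty and Spred proteins, the phosphatase Dusp6 and the membrane protein Il17rd.

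Values were log2 signals with array medians between 7.03 and 7.12, and a signal below a level of 6.33 to 6.47, depending on the array, counted as dim. A probe's signal also depends on its sequence, so levels were compared between groups for the same gene and not between genes. The mutant distal maxilla array 3 and the mutant proximal maxilla array 3 correlated better with mutant mandible groups than with their own group (mean r with their own group 0.9725 and 0.9688). Tgfbr1 measured 11.92 to 12.36 in controls and 12.20 to 12.57 in mutants; where its probe set lies relative to the deleted exon is not given in the sources used here, so it checks no label. Mutant arrays numbered 1 and 3 carried both Xist (11.15 to 12.79) and the Y-linked Eif2s3y (9.05 to 9.75), whereas every control array and mutant array 2 carried a high signal of only one of them. Within a genotype, arrays of the same number showed the same pattern in all 4 regions. The genotypes thus differed in these sex-linked signals, and the part of sex in the genotype differences was not tested. The labels do not say whether an array holds 1 embryo or a pool, or whether same-numbered arrays share embryos. The p-values therefore measure the spread between these samples, and the main fit on the mean of the regions took the 12 arrays of a genotype as independent. In whole tissue, fewer cells of a type and less RNA per cell cannot be told apart. Of the marker lists, 9 of 10 cartilage genes and all 6 tested of 10 bone genes fell in mutants on the mean of the 4 regions, and the bone markers Sp7, Ibsp, Alpl and Col1a1 were measured above the dim level in every group, while Dmp1 and Phex were below it in some mutant groups. Epithelial markers rose (6 of 10), as did cranial mesenchyme markers (4 of 6), while muscle (4 of 10), tendon (5 of 5) and macrophage markers (4 of 6) fell. At either end of the maxilla, no muscle or macrophage marker was called. In the distal maxilla no epithelial marker was called either, and their median difference was -0.35. In the proximal maxilla 5 of 10 epithelial markers were called higher, but the means of Epcam, Cdh1, Cldn7, Esrp1 and Grhl2 were lower in mutants.

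On the mean of the 4 regions, 10 of the 28 tested FGF genes differed between mutants and controls (limma, Benjamini-Hochberg adjusted p under 0.05), 3 higher and 7 lower. This share of 35.7% stood beside 40.6% of all genes tested. The ligands Fgf7, Fgf15 and Fgf18, the receptors Fgfr3 and Fgfrl1, the target Etv5 and the inhibitor Spry1 were lower, and the ligand Fgf10, the intracellular Fgf11 and the inhibitor Dusp6 were higher. The 3 higher calls compare with 25.2% of all genes called higher and the 7 lower calls with 15.3% called lower. The median difference was -0.07 on the log2 scale over the FGF genes and 0.02 over all genes. By region, 4 of 28 were called in the distal mandible (2 higher, 2 lower) against 16.0% of all genes (8.02% higher, 7.98% lower), 1 in the proximal mandible (lower) against 19.9%, none in the distal maxilla against 2.96%, and 6 in the proximal maxilla (1 higher, 5 lower) against 10.5% (5.75% higher, 4.79% lower). In the distal maxilla, 6 FGF genes had an unadjusted limma p under 0.05. Mutant and control arrays did not overlap for 8 of 28 FGF genes in the distal mandible (42.4% of all genes) and 4 in the proximal mandible (35.2%). They did not overlap for 2 in the distal maxilla (19.9%) and 10 in the proximal maxilla (28.8%). Of the 10 calls on the mean, the 5 for Fgf11, Fgf18, Fgfr3, Fgfrl1 and Dusp6 held under every alternative listed below and without any single array, and the rest did not. When the regions of each genotype and replicate number were averaged first, leaving 3 values against 3, the same 5 genes were the ones called, 5 of 28, while the share of all genes called fell to 15.2%.

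**Figure D1:**
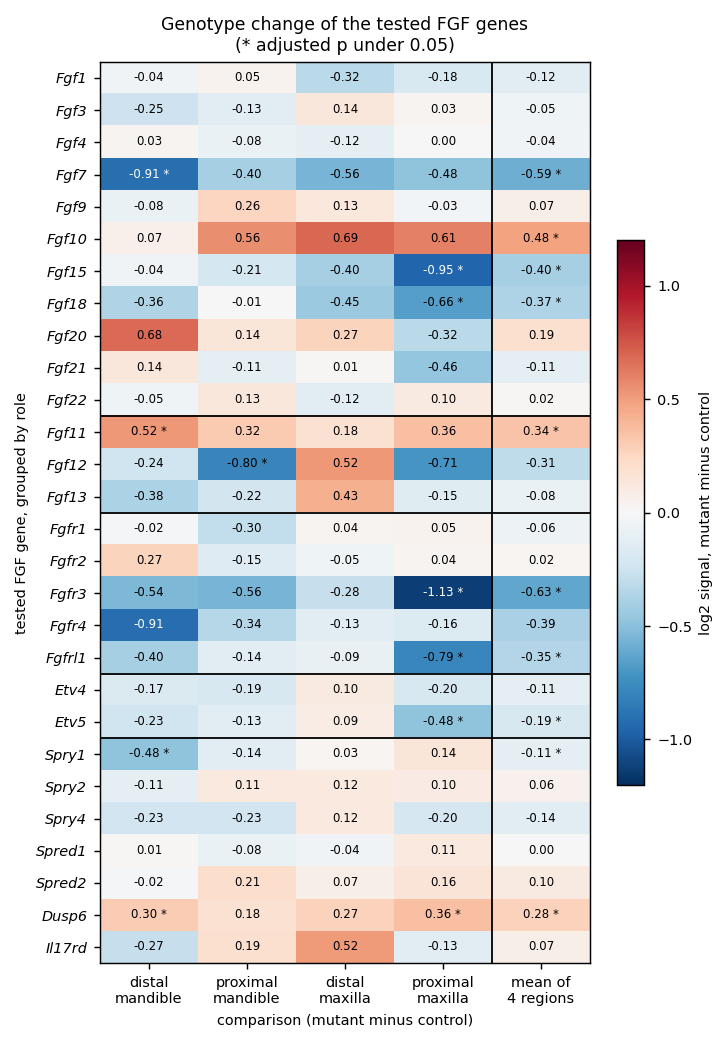
Difference of mutant from control in log2 signal for each of the 28 tested FGF genes (rows, grouped by role) in the 4 regions and on their mean (columns); a star marks a limma adjusted p under 0.05. The distal maxilla column has no star, and Fgfr3 in the proximal maxilla, at -1.13, is the deepest called value.

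Fgf7, a mesenchymal ligand for the epithelial form of Fgfr2, fell by 0.59 ± 0.13 on the mean of the regions (SE; limma adjusted p = 0.00139, 1.50-fold), with 12 mutant arrays at 7.25 to 9.20 (median 8.24) and 12 control arrays at 8.33 to 9.35 (median 8.75). In the distal mandible the controls read 8.85, 8.89 and 8.85 and the mutants 8.27, 7.39 and 8.21. The 3 control arrays lay close together and above all mutants, among which array 2 was the lowest. The difference there was -0.91 ± 0.26 (SE, n = 3 against 3; limma adjusted p = 0.0221, 1.87-fold). Leaving out that mutant array gave -0.62 with an adjusted p of 0.15, and the call was also missed without any 1 of the 3 controls. Fgf7 was lower in all 4 regions, with differences of -0.40 to -0.56 in the 3 where it was not called.

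Fgf10, which uses the same receptor form and is made by mesenchyme, moved the other way. It was higher in mutants by 0.48 ± 0.12 (SE; limma adjusted p = 0.00267, 1.39-fold), with mutant arrays at 6.49 to 7.84 (median 7.18) and control arrays at 6.13 to 6.90 (median 6.76). These signals sit just above the dim level, and the control distal maxilla array 3 (6.13) and control proximal maxilla array 1 (6.29) lay below it. In the distal mandible the means were nearly equal (6.84 in mutants, 6.78 in controls), and in the other regions the difference was 0.56 to 0.69 with no regional call. With the regions averaged first, Fgf7 (adjusted p = 0.0765) and Fgf10 (0.0536) both missed the limma threshold.

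Fgf18, a ligand known for its part in bone, cartilage and palate formation, fell by 0.37 ± 0.09 on the mean (SE; limma adjusted p = 0.00283, 1.29-fold). The proximal maxilla arrays read 8.56, 8.52 and 8.44 in controls and 7.56, 7.73 and 8.25 in mutants. All mutant arrays were below all controls, with mutant array 3 the nearest. That difference was -0.66 ± 0.18 (SE, n = 3 against 3; limma adjusted p = 0.0242, 1.58-fold). It was called without mutant array 3 and was missed without any 1 of the other arrays, with an adjusted p of up to 0.0913, and in a fit of only these 6 arrays (0.114). In the proximal mandible the genotypes had the same mean of 8.81.

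Fgf15, the mouse counterpart of human FGF19 and a gene known from embryonic brain and gut, was dim in most groups. In the proximal maxilla it measured 6.76, 7.02 and 6.55 in controls and 5.91, 6.36 and 5.21 in mutants. The controls were above the dim level, and the mutant mean of 5.83 was below it, so the difference of -0.95 ± 0.29 (limma adjusted p = 0.0429) is a lower limit on the change. Summed neuronal markers in that region were 14.11 to 14.94 in controls and 13.40 to 14.61 in mutants. Array 3 had the lowest sum of the mutants as well as the lowest Fgf15. Mutant array 1 had the highest sum (14.61), but its Fgf15 (5.91) was below that of array 2 (6.36, sum 14.04). The part of neurons in the result was not tested. Without mutant array 3 the difference was -0.64 (adjusted p = 0.251), and it was also missed without any 1 of the controls or mutant array 1, with array weights (0.0807) and in a fit of only these 6 arrays (0.145). On the mean, Fgf15 was lower by 0.40 ± 0.15 (adjusted p = 0.0336), which was lost with genotype and replicate number as a random block (0.139) and without both mutant maxilla arrays numbered 3 (-0.25, 0.105), and held without 15 of the 24 arrays, each left out singly.

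The other tested ligands gave no genotype call in any region or on the mean. Fgf20, known from tooth and inner ear development, was 0.68 ± 0.29 higher in the distal mandible of mutants (limma adjusted p = 0.125), where mutant array 2 alone reached 8.31 and the other mutants read 7.06 and 6.93 beside controls of 6.40 to 6.94. Fgf9, an epithelial and mesenchymal ligand, was 0.26 ± 0.10 higher in the proximal mandible (0.0935), with mutants at 7.98 to 8.13 and controls at 7.69 to 7.99; with the mean of its probe sets it was called there (0.34, 0.0167). For the ubiquitous ligand Fgf1, the tooth ligands Fgf3 and Fgf4, the metabolic hormone Fgf21 and the neuronal ligand Fgf22, the differences on the mean lay between -0.12 and 0.02.

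**Figure D2:**
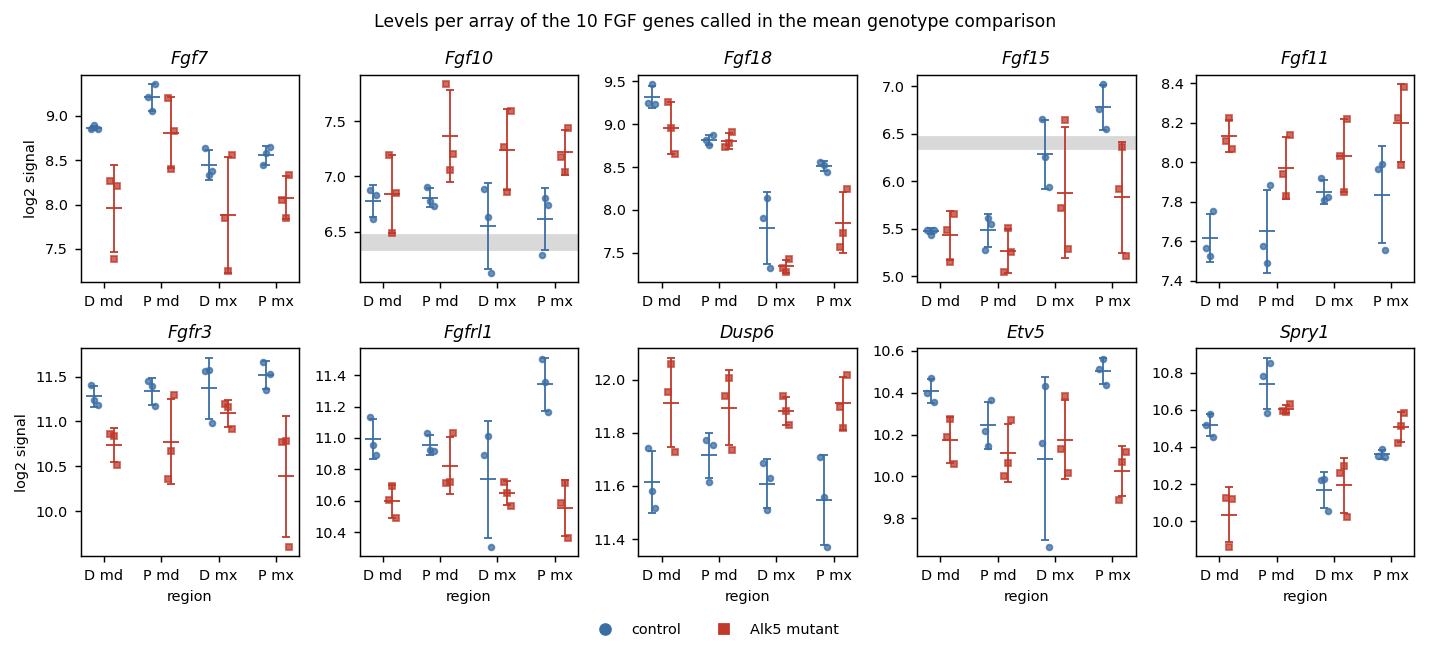
Log2 signal of the 10 FGF genes that differed between genotypes on the mean of the regions, by region (D distal, P proximal, md mandible, mx maxilla); each point is 1 array, bars are the mean and SD of 3 arrays, and the grey band is the dim level. The mutant mean of Dusp6 is higher and that of Fgfr3 lower in all 4 regions, and Spry1 shows its called drop, -0.48, in the distal mandible.

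The intracellular proteins of the Fgf11 group do not act as secreted ligands and are known as partners of voltage-gated sodium channels in neurons. Fgf11 rose in mutants by 0.34 ± 0.07 on the mean (SE; limma adjusted p = 0.000481, 1.27-fold), with mutant arrays at 7.83 to 8.38 (median 8.09) and control arrays at 7.49 to 7.99 (median 7.78). In the distal mandible it read 7.57, 7.52 and 7.75 in controls and 8.11, 8.22 and 8.07 in mutants, without overlap (0.52 ± 0.14, limma adjusted p = 0.0129). That regional call was missed without control array 2 (0.0562) and without mutant array 2 (0.0644). Its second probe set, whose mean of 6.37 is at the dim level, gave a difference of 0.07 on the mean and 0.00 in the distal mandible. With the mean of both probe sets the difference was 0.21 on the mean of the regions (0.00284), and 0.26 in the distal mandible, which was not called (0.0902).

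Fgf12 fell in the proximal mandible, from 7.68, 7.66 and 7.62 in controls to 6.60, 6.78 and 7.20 in mutants. The control arrays agreed closely and the mutants spread below them. The difference was -0.80 ± 0.26 (SE, n = 3 against 3; limma adjusted p = 0.0368, 1.74-fold), and it was called without mutant array 3 but missed without any 1 of the other arrays (adjusted p up to 0.129) and with genotype and replicate number as a random block (0.0523). Summed neuronal markers there were 11.42 to 12.08 in controls and 12.28 to 12.53 in mutants, with 1 of 10 markers called higher. Their part in the Fgf12 difference was not tested. With the mean of its probe sets Fgf12 was also called lower on the mean of the regions (-0.41, 0.00983). In the proximal maxilla its mean was also lower, at 7.35 in mutants and 8.06 in controls, and every mutant array lay below every control. Fgf12 was not called there in the main fit, but it was called lower with the mean of its probe sets. In the distal maxilla the direction was opposite, with a difference of 0.52 ± 0.26 (0.258). Fgf13 gave no genotype call, with differences from -0.38 to 0.43 across the regions.

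Among the receptors, Fgfr3 and the decoy receptor Fgfrl1, which lacks the kinase, fell together. Fgfr3 is known as a brake on cartilage growth and is strongly expressed by chondrocytes. On the mean of the regions it was lower by 0.63 ± 0.13 (SE; limma adjusted p = 0.000624, 1.54-fold), with mutant arrays at 9.61 to 11.29 (median 10.81) and control arrays at 10.98 to 11.66 (median 11.40). In the proximal maxilla the controls read 11.66, 11.35 and 11.53 and the mutants 10.77, 10.79 and 9.61. All mutants were below all controls, and mutant array 3 stood far below the other mutants. The difference was -1.13 ± 0.25 (SE, n = 3 against 3; limma adjusted p = 0.00815, 2.18-fold). Without mutant array 3 it was -0.74 (0.0482), and in a fit of only these 6 arrays the adjusted p was 0.119. In the other regions the difference was -0.28 to -0.56 with no call, and a second Fgfr3 probe set gave -0.54 on the mean.

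Fgfrl1 fell by 0.35 ± 0.07 on the mean (SE; limma adjusted p = 0.000562, 1.28-fold). The proximal maxilla arrays read 11.50, 11.36 and 11.17 in controls and 10.59, 10.71 and 10.37 in mutants, without overlap, for a difference of -0.79 ± 0.14 (limma adjusted p = 0.00176, 1.73-fold) that stayed past the threshold in all 9 alternatives and without each array. In the distal mandible, mutants at 10.61, 10.70 and 10.49 were also below controls at 11.13, 10.96 and 10.89, yet the adjusted p was 0.0606. In the distal maxilla the control array 3, at 10.31, was lower than every mutant array of that region. The difference of -0.09 there was not called.

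Cartilage markers fell where these receptors were called and also where they were not. They were lower in 8 of 10 cases in the distal mandible, 3 of 10 in the proximal mandible and 1 of 10 in the distal maxilla. In the proximal maxilla 9 of 10 cartilage markers were lower in mutants, with summed levels of 16.00 in each control and 11.96 to 14.40 in mutants, and no listed cartilage marker lacked a probe set above the filter. Mutant array 3 of that region had both the lowest cartilage sum (11.96) and the lowest Fgfr3. The control distal maxilla array 3, low for Fgfrl1, had a cartilage sum of 13.42 beside 15.44 and 15.84 in the other controls. The part of cartilage in the receptor changes was not tested.

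**Figure D3:**
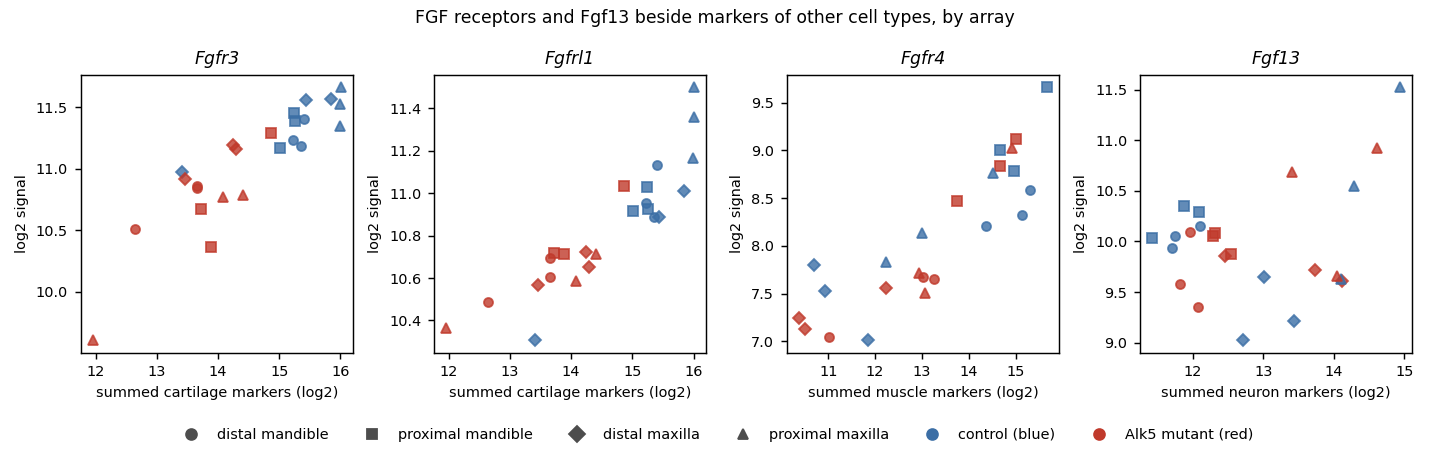
Log2 signal of Fgfr3 and Fgfrl1 against the log2 of summed cartilage markers, of Fgfr4 against summed muscle markers and of Fgf13 against summed neuronal markers; each point is 1 of 24 arrays, coloured by genotype and shaped by region. The lowest Fgfr3 signal (9.61) is on the array with the lowest cartilage sum (11.96), and the highest Fgf13 signal (11.52) on the one with the highest neuronal sum (14.94). In the mutant proximal maxilla the array with the lowest neuronal sum (13.40) has Fgf13 at 10.69, above another at 9.66.

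The promoters of Fgfr3, Fgfrl1 and Dusp6 are shown as examples of both directions, the receptors falling and the inhibitor rising; Fgf11 and Fgf18 held their calls as well and are not shown. Each is the 250 bases before a RefSeq start on the plus strand of GRCm38.p6, with capitals marking a match to CCGGAAG, an ETS factor motif, or AGGAAG, a shorter PEA3-type ETS motif, on either strand, or to CAGACA, the SMAD box motif. The windows are chr5:33721474-33721723 for the first of 2 Fgfr3 starts, chr5:108693979-108694228 for Fgfrl1 and chr10:99262981-99263230 for Dusp6.
Fgfr3: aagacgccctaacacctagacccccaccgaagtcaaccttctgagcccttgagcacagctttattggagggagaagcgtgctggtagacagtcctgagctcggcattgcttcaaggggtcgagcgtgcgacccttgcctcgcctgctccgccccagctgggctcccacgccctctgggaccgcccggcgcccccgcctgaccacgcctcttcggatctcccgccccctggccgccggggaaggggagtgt
Fgfrl1: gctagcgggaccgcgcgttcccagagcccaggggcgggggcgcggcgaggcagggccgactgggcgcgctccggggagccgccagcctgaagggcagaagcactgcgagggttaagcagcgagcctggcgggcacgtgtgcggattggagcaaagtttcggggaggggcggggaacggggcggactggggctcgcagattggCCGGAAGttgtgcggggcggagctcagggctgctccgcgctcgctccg
Dusp6: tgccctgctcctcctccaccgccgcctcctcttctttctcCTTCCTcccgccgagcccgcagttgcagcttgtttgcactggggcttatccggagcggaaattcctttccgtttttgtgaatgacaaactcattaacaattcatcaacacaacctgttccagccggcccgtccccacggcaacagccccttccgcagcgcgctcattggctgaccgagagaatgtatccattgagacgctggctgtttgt
The Fgfr3 window held none of the 3 motifs, the Fgfrl1 window held CCGGAAG 48 to 42 bases before the start, and the Dusp6 window held AGGAAG on the opposite strand 210 to 205 bases before it. CCGGAAG was in 6.91% of 32851 windows of this length, AGGAAG in 29.5% and CAGACA in 17.1%. The 28 FGF genes, of 37, with a window in the RefSeq table had 37 windows, of which 2.7%, 18.9% and 13.5% held these motifs. By gene, the motifs were found for 1, 7 and 5 of these 28, which are not the same 28 as those tested. AGGAAG does not overlap CCGGAAG as written. These are letter matches only.

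The kinase receptors Fgfr1, Fgfr2 and Fgfr4 gave no genotype call. Fgfr4, a receptor known from muscle progenitors, was 0.91 ± 0.34 lower in the distal mandible of mutants (limma adjusted p = 0.07), with mutants at 7.68, 7.04 and 7.66 below controls at 8.20, 8.32 and 8.59. Muscle markers fell there in 6 of 10 cases, with summed levels of 11.02 to 13.25 in mutants and 14.37 to 15.30 in controls. The mutant proximal maxilla array 3 had a high Fgfr4 signal of 9.02 and a high muscle sum of 14.92 beside 13.07 and 12.94 in the other mutants. Whether muscle content accounts for the Fgfr4 values was not tested. Fgfr2 was 0.27 ± 0.09 higher in the distal mandible (0.0528), and Fgfr1 and Fgfr2 differed by -0.06 and 0.02 on the mean.

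Of the ETS targets, Etv5 was lower in mutants by 0.19 ± 0.07 on the mean (SE; limma adjusted p = 0.034, 1.14-fold). In the proximal maxilla it read 10.51, 10.56 and 10.44 in controls and 9.89, 10.07 and 10.12 in mutants, a drop of all 3 arrays below the controls (-0.48 ± 0.14, limma adjusted p = 0.0311, 1.39-fold). That call held only without mutant array 2 among the 6 arrays left out in turn (adjusted p up to 0.0936 otherwise), and the mean of its probe sets missed the threshold (-0.42, 0.0911). The call on the mean was lost with genotype and replicate number as a random block (0.149), with the mean of its 3 probe sets (-0.12, 0.224) and with the regions averaged first (0.106), and it held without 13 of the 24 arrays left out singly. Etv4 differed by -0.11 ± 0.06 on the mean (0.112) and was not called in any region; with the mean of its probe sets it was called lower on the mean (-0.14, 0.00774) and in the distal mandible (-0.25, 0.0304).

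Dusp6, the phosphatase that removes the activating phosphates from ERK, rose in mutants. Its mutant arrays lay at 11.73 to 12.06 (median 11.92) and its control arrays at 11.37 to 11.77 (median 11.62). The ranges overlapped narrowly, and the mean difference was 0.28 ± 0.05 (SE; limma adjusted p = 0.00012, 1.21-fold), positive in all 4 regions. The proximal maxilla arrays were 11.71, 11.56 and 11.37 in controls and 11.90, 11.82 and 12.02 in mutants (0.36 ± 0.09, limma adjusted p = 0.019). That regional call was lost without control array 3 (0.109) or mutant array 3 (0.102), with array weights (0.0528) and in a fit of only these 6 arrays (0.11). In the distal mandible, controls of 11.74, 11.58 and 11.52 and mutants of 11.95, 12.06 and 11.73 gave 0.30 ± 0.09 (0.0362). That call held in all 9 alternatives. With each of the 6 arrays left out in turn, it held only without control array 1 or without mutant array 3.

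Spry1, a Sprouty inhibitor of receptor tyrosine kinase signalling, fell in the distal mandible. Controls read 10.52, 10.58 and 10.46 and mutants 10.12, 9.86 and 10.12. The groups did not overlap, with a difference of -0.48 ± 0.08 (SE, n = 3 against 3; limma adjusted p = 0.000869, 1.40-fold) that held in all 9 alternatives and without each array. In the proximal maxilla the direction was opposite, with controls at 10.35, 10.39 and 10.35 and mutants at 10.42, 10.52 and 10.58, a difference of 0.14 ± 0.08 that was not called (0.293). The genotype difference of Spry1 was lower in the mandible than in the maxilla by 0.39 ± 0.08 (limma adjusted p = 0.00803). It was the 1 FGF gene of 28 called in this comparison of differences, against 6.76% of all genes. The mean over the regions, -0.11 ± 0.04 (0.0408), hides this split, was lost with the random block (0.188) and held without 9 of the 24 arrays left out singly.

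The remaining inhibitors gave no genotype call. Spry4 was lower by 0.14 ± 0.06 on the mean (limma adjusted p = 0.076), and Spry2, Spred1 and Spred2 differed by 0.06, 0.00 and 0.10. Blocking on the replicate number, Spred2 was called on the mean (0.0066), but not with the random block or with the regions averaged first. Il17rd, which binds FGF receptors and dampens their signal, was 0.52 ± 0.17 higher in the distal maxilla of mutants (0.104), where control array 3 read 9.48 beside 9.92 and 10.19. The comparison of genotype differences between distal and proximal ends called none of the 28, against 0.115% of all genes. At an unadjusted limma p under 0.05 it held 2 of them, Fgf12 (0.89 ± 0.26, adjusted p = 0.258) and Spry1 (-0.23 ± 0.08, 0.394).

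The control jaws were compared to see where FGF genes differ by site. In the control mandible against the control maxilla, 13 of 28 FGF genes were called, 8 higher and 5 lower in the mandible, beside 34.7% of all genes (16.7% higher, 18.1% lower). Higher in the mandible were the ligands Fgf3, Fgf7 and Fgf18, the receptors Fgfr1 and Fgfr4, the target Etv4 and the inhibitors Spry1 and Spry4. Lower were the ligands Fgf1, Fgf9, Fgf15 and Fgf21 and the inhibitor Il17rd. Arrays of the control mandible and maxilla did not overlap for 4 of the 28 FGF genes, against 15.1% of all genes. These comparisons share the control arrays with the genotype comparisons.

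**Figure D4:**
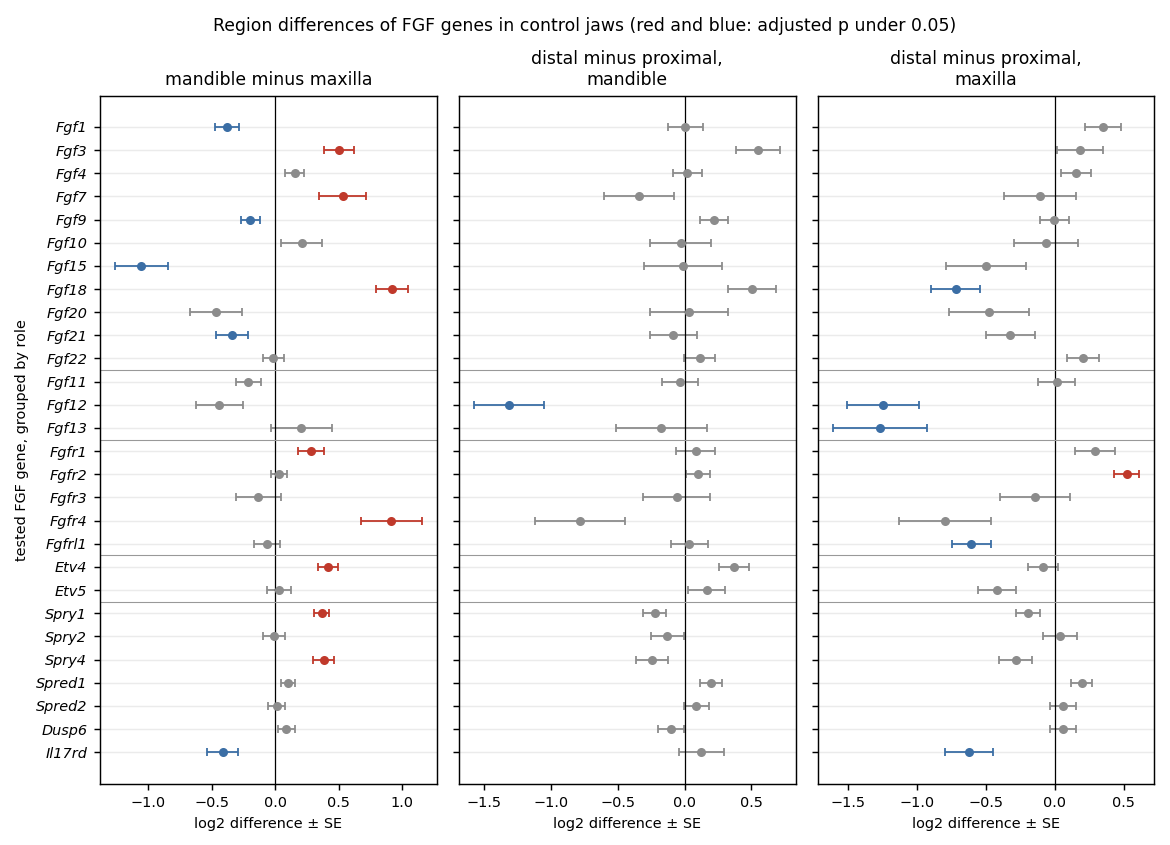
Differences in log2 signal (± SE) of the tested FGF genes between control mandible and maxilla, and between distal and proximal ends within each control jaw; coloured points have a limma adjusted p under 0.05. Fgf18 and Fgfr4 lie at 0.92 on the mandible side, and Fgf12 lies at -1.31 and -1.25 between the ends.

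Fgf18 gave the smallest p of these. Its 6 mandible arrays were at 8.75 to 9.47 (median 9.06) and its 6 maxilla arrays at 7.32 to 8.56 (median 8.29), without overlap. The difference was 0.92 ± 0.13 (SE; limma adjusted p = 1.53e-05, 1.89-fold). Bone markers were higher in the mandible too (5 of 6 tested, median 1.47), as were muscle (10 of 10, median 2.92) and tendon markers (5 of 5), and the part of these tissues in the FGF differences was not tested. Fgf7 was also without overlap, at 8.85 to 9.35 against 8.33 to 8.65 (0.53 ± 0.18, limma adjusted p = 0.0303). Its call was missed without distal mandible array 2 or 3, proximal mandible 1 or 3, distal maxilla 2 or 3, or proximal maxilla 1, each left out singly (adjusted p up to 0.0674).

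Fgfr4 was higher in the mandible by 0.92 ± 0.24 (SE; limma adjusted p = 0.00494, 1.89-fold), with mandible arrays at 8.20 to 9.66 (median 8.69) and maxilla arrays at 7.02 to 8.77 (median 7.82). With the mean of its probe sets the difference was 0.39 (0.00944), and the other 2 probe sets above the dim level gave 0.17 and 0.03. The highest array, control proximal mandible 3 at 9.66, also had the highest muscle sum of the controls, 15.67. Fgfr1, a receptor widely expressed in mesenchyme, was higher by 0.28 ± 0.10 (0.0387), with mandible arrays at 11.08 to 11.36 (median 11.30) and maxilla arrays at 10.70 to 11.38 (median 10.97). That call held without proximal mandible array 2, distal maxilla 1 or proximal maxilla 1 and was missed without any 1 of the others (adjusted p up to 0.0916).

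Etv4, Spry1 and Spry4, all induced by ERK activity, were higher in the mandible. Etv4 read 8.57, 8.61 and 8.54 in the distal mandible and 7.96, 7.94 and 7.88 in the distal maxilla, with the proximal ends between 7.85 and 8.41. The jaw difference was 0.42 ± 0.08 for Etv4 (limma adjusted p = 0.000331), 0.37 ± 0.06 for Spry1 (8.62e-05) and 0.38 ± 0.08 for Spry4 (0.0014). Spry1 was without overlap, at 10.46 to 10.85 against 10.05 to 10.39, and Spry4 overlapped, at 8.39 to 8.80 against 7.99 to 8.59. Dusp6 and Etv5 differed between the jaws by 0.09 ± 0.07 (0.348) and 0.03 ± 0.10 (0.833), and Il17rd was lower in the mandible by 0.41 ± 0.12 (0.0112).

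On the maxilla side, Fgf15 measured 5.93 to 7.02 in the maxilla and 5.28 to 5.61 in the mandible. The mandible was dim throughout, so the difference of -1.05 ± 0.21 (limma adjusted p = 0.000466) is a lower limit. Neuronal markers were lower in the mandible in 7 of 10 cases (median -1.88), with summed levels of 11.42 to 12.09 there and 12.72 to 14.94 in the maxilla; their part was not tested. Fgf1 (-0.38), at 6.01 to 6.28 in the mandible and 6.21 to 6.80 in the maxilla, and Fgf21 (-0.34), at 5.97 to 6.29 and 6.11 to 6.82, were called at signals around or below the dim level. Fgf9 differed by -0.20 ± 0.07 (0.0445), which was lost with quantile normalization (0.191), with no filter (0.0579) and with the 60th percentile as filter (0.0551). Its second probe set, also above the dim level, gave -0.50, and the call held with the mean of its probe sets. Quantile normalization also lost Fgf21 (0.0768). Left out singly, the arrays without which Fgf9 held were proximal mandible 3, distal maxilla 2 and proximal maxilla 2, and those for Fgf21 were proximal mandible 2, distal maxilla 1 and proximal maxilla 2. Fgf3 was called higher in the mandible (0.50 ± 0.12, 0.00233), and only the distal mandible controls, at 6.93, 7.16 and 6.63, stood above the dim level as a group. Blocking on the replicate number, Fgf20 joined the lower calls (-0.47, 0.0178).

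Between the ends of the control mandible, 1 of 28 FGF genes was called, against 5.45% of all genes. It was Fgf12, at 6.36, 6.31 and 6.34 distally and 7.68, 7.66 and 7.62 proximally. The distal values are at the dim level, so -1.31 ± 0.26 (limma adjusted p = 0.00467) is a lower limit on the difference. Blocking on the replicate number, Fgf3 was called as well (0.55 higher distally, 0.0448), making 2. Epithelial markers were higher distally in 8 of 10 cases.

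Between the ends of the control maxilla, 6 of 28 were called, 1 higher and 5 lower distally, against 10.9% of all genes (4.90% higher, 5.99% lower). Fgfr2, whose epithelial form receives Fgf7 and Fgf10, was higher distally at 11.58, 11.57 and 11.63 against 10.98, 11.04 and 11.19 (0.52 ± 0.09, limma adjusted p = 0.000762, 1.43-fold). Epithelial markers were higher there too (7 of 10, with sums of 15.16 to 15.84 distally and 13.85 to 14.46 proximally). In the control mandible, where 8 of 10 were higher distally, Fgfr2 averaged 11.41 distally and 11.31 proximally and was not called. The part of epithelium was not tested. Fgf12 was again lower distally, at 6.99, 7.16 and 6.29 against 8.08, 8.0 and 8.10 (-1.25 ± 0.26, 0.00388).

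Fgf18 (-0.72 ± 0.18, limma adjusted p = 0.0129), Fgfrl1 (-0.61 ± 0.14, 0.00774) and Il17rd (-0.62 ± 0.17, 0.0231) were lower at the distal end of the maxilla. For each of them the distal array 3 was the lowest of that end, at 7.32, 10.31 and 9.48. Without it the differences were -0.49 (0.111), -0.39 (0.0595) and -0.43 (0.179), and none was called. They were also missed without control proximal maxilla array 1 for Fgf18 (0.0514) and Fgfrl1 (0.0509), and without array 2 of that end for Il17rd (0.0912). A fit of only these 6 arrays missed all 3 (0.0848, 0.0988 and 0.0816). For Il17rd the mean of its probe sets gave -0.34 (0.135), its second probe set giving -0.06. Fgf13 was lower distally by 1.27 ± 0.34 (0.0205), with proximal arrays spread from 9.63 to 11.52. Their neuronal sums ran in the same order, 14.94, 14.28 and 14.11. In the mutant proximal maxilla the order differed, with Fgf13 at 10.92, 9.66 and 10.69 and sums of 14.61, 14.04 and 13.40. The part of neurons was not tested. Without the highest of the 3 control proximal arrays the difference was -0.79 (0.138). The call was also missed without distal array 3 (-1.13, 0.113), without proximal array 2 (-1.28, 0.0537) and in a fit of only these 6 arrays (0.134).

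**Figure D5:**
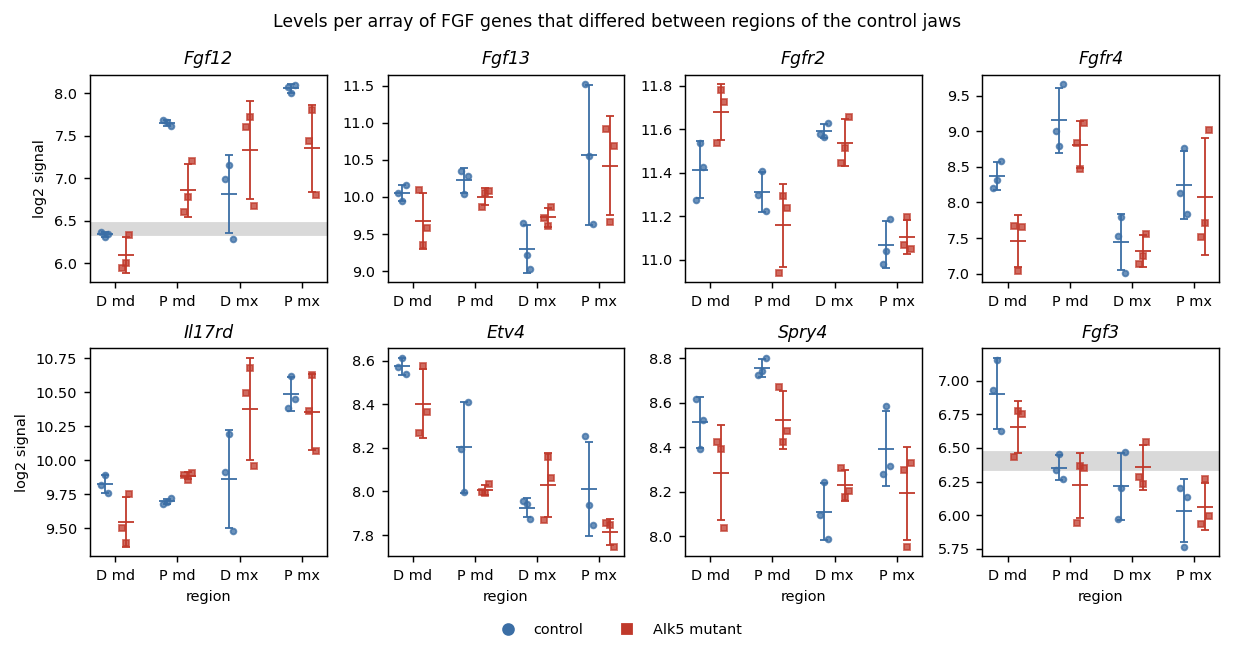
Log2 signal of 8 FGF genes that differed between regions of the control jaws, by region and genotype (D distal, P proximal, md mandible, mx maxilla); each point is 1 array, bars are the mean and SD of 3 arrays, and the grey band is the dim level. Fgf12 is lower at the distal end of both control jaws, and Etv4 is highest in the distal mandible at 8.54 to 8.61.

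Genes around the pathway that are not members were read from lists of its other parts. Of the intracellular route from receptor to ERK, 3 of 11 tested genes were higher on the mean of the regions and none lower, beside 25.2% of all genes higher and 15.3% lower: Nras by 0.18 ± 0.04 (limma adjusted p = 0.000959), Map2k2, which encodes a MEK kinase, by 0.12, and the adaptor Gab1 by 0.11. Of coreceptors and extracellular modulators, 6 of 17 were higher and 3 lower. The membrane protein Flrt3, which binds FGF receptors, rose by 0.62 ± 0.05 (5.99e-08), and the heparan sulfate carriers Gpc1 and Sdc2 fell by 0.39 and 0.43. Other genes induced by ERK split, with 2 of 13 higher and 4 lower. The immediate early gene Fos fell by 0.53 ± 0.11 (0.000848), and Phlda1 and Dusp7 rose by 0.28 and 0.17.

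First-arch genes known to respond to epithelial FGF were 2 of 7 higher on the mean and none lower, again beside 25.2% and 15.3% of all genes, namely Barx1 (0.55 ± 0.18, limma adjusted p = 0.0207) and Dlx1 (0.54 ± 0.20, 0.0359). In control jaws all 7 tested genes of this list were higher in the mandible, with a median of 1.53 against 0.01 over all genes. In the same comparison 16.7% of all genes were higher and 18.1% lower. The intracellular route gave 2 higher and 2 lower of 11. Coreceptors and modulators were more often higher, 8 and 2 of 17 (median 0.20). Other ERK-induced genes were more often lower in the mandible, with 3 higher and 7 lower of 13 (median -0.19).

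The 8 FGF genes that did not pass the filter were the ligands Fgf2, Fgf5, Fgf6, Fgf8, Fgf16, Fgf17 and Fgf23 and the intracellular Fgf14. Fgf8, the classical epithelial ligand of the first arch, measured 4.57 to 5.88 and was not detected above the dim level in any array. Fgf6, a ligand known from skeletal muscle, exceeded that level in 1 array, the control proximal mandible array 3 at 7.11, which also had the highest muscle sum of the controls. Without the filter, Fgf2 and Fgf6 were called lower in the proximal mandible of mutants, and Fgf6 also in the distal mandible and on the mean of the regions. Between the control jaws, Fgf2 and Fgf6 were then called higher in the mandible and Fgf16 lower. All these group means were dim or at the dim level. A total of 22 of the 28 tested genes were called in at least 1 of the 10 comparisons, and Fgf4, Fgf20, Fgf22, Spry2, Spred1 and Spred2 in none.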

How the data were processed

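The authors deposited log2 signals from RMA normalization (per the submitters' processing notes, which give no version) of labelled cRNA of 5 µg total RNA on 24 single-colour arrays, per the labels' protocols. The base of the logarithm is not given in the sources used here; values from 3.29 to 14.86 fit a log2 scale. Of 45101 probe sets, 34945 carried 1 gene symbol in the array annotation; 932 with several and 9160 with none were not named. Each gene took its brightest probe set by mean signal, and a gene was tested when it lay above the 40th percentile of its array in at least 3 arrays, which left 13942 genes.

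All arrays were fitted with limma 3.58.1 in R 4.3.3 with 1 mean per group, and 10 comparisons were tested by eBayes with a mean-variance trend. Tests were two-sided, with Benjamini-Hochberg adjustment over all 13942 genes and a threshold of 0.05. A p in parentheses in the text is this adjusted p, and ± after a difference is its standard error. Where a group mean lay under the filter level, no fold is given. The procedure was tested on simulated data.

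Same-numbered samples deviated together, with every correlation over 0.1, on the mean genotype comparison (0.16, 0.13 and 0.36 for the 3 numbers), between control jaws (0.55, 0.26 and 0.12) and from end to end of the control mandible (0.68, 0.33 and 0.50), and not in the others. The number was therefore also used as a block. The members and gene lists were chosen with earlier results of these data known. Per-array values, or ranges over the arrays of a jaw or genotype, are given for members called in at least 1 comparison, and from each pathway list up to 3 called genes with the largest test statistic on the mean genotype comparison are named. The number of arrays limits the precision. Promoter windows are RefSeq sequences of GRCm38.p6. Alternatives were quantile normalization, array weights, 2 filters, the mean of a gene's probe sets, the blocks, fits of fewer arrays and each array left out.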

Additional observations from a re-analysis of the deposited data

Results flagged for a closer look

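The genotype difference of Spry1 differed between the jaws: the limma comparison of the mandible difference with the maxilla difference gave -0.39 ± 0.08 (adjusted p = 0.00803). By region, every mutant array of Spry1 lay above the controls in the proximal maxilla and below them in the distal mandible, and these regional differences were 0.63 apart on the log2 scale; that pair of regions was not tested by itself. For Il17rd, every mutant array lay above the controls in the proximal mandible and below them in the distal mandible, with regional differences 0.46 apart, also not tested by itself. Neither regional difference of Il17rd passed the threshold (0.19 ± 0.17, adjusted p = 0.496, and -0.27 ± 0.17, 0.303).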

How the results depend on the processing

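The number of FGF genes called moved by more than 1.5 times under these alternatives, and the share of all genes called (in parentheses) often moved with it. In the distal mandible (4 called; 16.0%), array weights gave 10 (30.6%), the replicate block 7 (23.3%), only the arrays compared 8 (23.4%) and leaving out both mutant maxilla arrays numbered 3 gave 7 (18.2%). In the proximal mandible (1 called; 19.9%), array weights gave 2 (21.0%), no filter 3 (14.6%), the mean of probe sets 2 (19.2%), the replicate block 3 (26.6%), the random replicate block 0 (20.4%) and leaving out those 2 arrays 2 (21.8%). In the distal maxilla (0 called by limma, with 6 at an unadjusted p under 0.05), array weights gave 4 (8.56%, from 2.96%), the replicate block 1 (7.80%) and leaving out both arrays 3 (7.98%). In the proximal maxilla (6 called; 10.5%), only the arrays compared gave 2 (2.30%) and leaving out both arrays 3 (5.62%). On the mean of the regions (10 called; 40.6%), averaging the regions first gave 5 (15.2%); the random replicate block gave 7 (27.2%). For the genotype difference between jaws (1 called; 6.76%), array weights gave 2 (8.80%) and leaving out both arrays 2 (5.36%), and between ends (0 called; 0.115%) leaving out both arrays gave 1 (0.351%). Between the control jaws (13 called; 34.7%), a filter at the 60th percentile gave 8 (36.8%), with Fgf1, Fgf3, Fgf15 and Fgf21 no longer tested and Fgf9 missing the threshold (-0.20, adjusted p = 0.0551). From end to end of the control mandible (1 called; 5.45%), quantile normalization gave 3 (6.15%), array weights 8 (18.3%), the mean of probe sets 3 (5.12%), the replicate block 2 (8.29%), the random replicate block 3 (9.07%) and only the arrays compared 5 (13.4%). Between the ends of the control maxilla (6 called; 10.9%), only the arrays compared gave 2 (6.03%). The cause of these moves was not tested.

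Leaving out 1 array at a time gave 1 to 4 calls in the distal mandible, 0 to 3 in the proximal mandible, 0 to 2 in the distal maxilla, 2 to 8 in the proximal maxilla, 7 to 12 on the mean, 1 between jaws and 0 between ends for the genotype difference, 9 to 12 between control jaws, 1 to 2 from end to end of the control mandible and 2 to 8 in the control maxilla. The lowest counts came without mutant array 2 in the distal mandible and without control array 3 in the proximal maxilla, and for the ends of the control maxilla without distal array 3. Of 42 calls of a gene in a comparison, 24 held in every alternative, 23 without each array and 20 in all of these. No called difference changed sign in the 877 refits of called genes, of which 144 missed the threshold. Arrays give no count of molecules, and members near the dim level, such as Fgf1, Fgf3, Fgf10, Fgf15, Fgf21 and Fgf22, have little room to show a decrease.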
